A study of Mus musculus with 10 samples.

Results

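The 7 genes of the mouse genome that encode inhibitors of cyclin-dependent kinases (CDKs) were examined in neural stem and progenitor cells (NSPCs): *Cdkn1a* (p21), *Cdkn1b* (p27) and *Cdkn1c* (p57) of the Cip/Kip family, and *Cdkn2a* (p16 and p19Arf), *Cdkn2b* (p15), *Cdkn2c* (p18) and *Cdkn2d* (p19) of the INK4 family. They are 7 of 21911 protein-coding genes on the chromosomes used. Peaks were assigned to a gene when the summit lay in its body or within 50 kb of it and the nearest start of a protein-coding transcript was its own. After peaks of the 6 ATAC-seq libraries that overlapped or abutted were merged into sites, the 7 genes held 39 of 108367 sites. *Cdkn1a* had 12 of these, *Cdkn1c* 8, *Cdkn2c* 6, *Cdkn1b* 5, *Cdkn2a* 4, *Cdkn2b* 3 and *Cdkn2d* 1.

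CDKs bound to cyclins drive the cell cycle, and their inhibitors hold it back. INK4 proteins bind CDK4 and CDK6 and keep them from D-type cyclins, so that the retinoblastoma proteins stay active, whereas Cip/Kip proteins also bind complexes that hold CDK2 and cyclin E or A. In neural stem cells, p21, p27 and p57 are known for keeping cells out of division, and p16 and p19Arf for halting division in ageing or stressed cells.

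NSPCs were cultured from brains of C57BL/6 mice at postnatal day 5. Activated NSPCs grew in medium that held FGF2 and EGF, both at 20 ng/ml. Quiescent NSPCs received 20 ng/ml FGF2 without EGF, plus 25 ng/ml BMP4, a bone morphogenetic protein that takes them out of the cycle, for 4 days by the labels, although the study's methods give a shorter time before ATAC-seq. Reactivated NSPCs were returned from that medium to FGF2 and EGF for 9 to 12 days. ATAC-seq, in which the Tn5 transposase cuts accessible DNA, was done on 2 libraries per state, and H3K4me3, a histone mark of gene starts, was profiled by ChIP-seq in 1 quiescent and 1 activated library. Such cultures mix stem and progenitor cells, and the study's methods call the 2 libraries of a condition biologically independent. The p-values rest on the spread between such libraries within a state, largely pooled over the states and over all sites tested. In these bulk libraries, more cells with an open site and a more open site in each cell cannot be told apart.

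The lists held from 47037 to 60355 peaks in the quiescent and activated libraries. The reactivated libraries, whose reads the authors had reduced before calling peaks, held 106270 and 106830. The genome-wide background pileup recovered from the lists was 12.1 in quiescent replicate 2 and from 6.01 to 6.61 in the other 5 libraries. The lowest pileup called was 25 in quiescent replicate 2 and 16 or 17 elsewhere, so weaker accessibility was not detectable. Promoter peaks in all 6 libraries were present at 6 of 6 markers of neural stem and progenitor cells, 3 of 4 neuronal markers, and none of 4 markers each of oligodendrocytes, microglia and endothelial cells. In single libraries, 0 to 1 oligodendrocyte, 1 to 2 microglial and 0 endothelial markers had one. The neuronal gene *Rbfox3* had no peak in the quiescent libraries, 2.71 in activated replicate 1 and 4.25 and 3.45 in the reactivated libraries, and *Snap25*, *Syt1* and *Syp* had higher values in both reactivated libraries (6.6 to 17.1) than each had in the other 4 (3.13 to 12.7). Marker values here are not scaled between libraries. Over sites with a peak in all 6 libraries, the median of log2 fold enrichment (pileup over background) was also higher in the reactivated libraries. It was 3.38 and 3.43 there, against 2.48 to 2.89 in the other 4. The microglial gene *P2ry12* had no peak and 2.06 in the quiescent, 6.23 and 4.42 in the activated and 9.61 and 9.58 in the reactivated libraries, *Tmem119* had 2.71 in activated replicate 2 and 5.74 and 3.06 in the reactivated libraries, and the myelin gene *Mbp* had 2.6 in quiescent replicate 2 and 5.25 and 3.89 in the reactivated libraries. *Cx3cr1* had 2.5 in quiescent replicate 1, *Aif1*, *Mog* and *Mag* had no peak in any library, and the part of such cells in the results was not tested. Lanes named in the peak lists differed between libraries, 1 of them being shared by quiescent replicate 2 and activated replicate 1, and their part in the results was not tested.

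Each value below is a fold enrichment, the ratio of the pileup at the summit to the background of the same library, unless it is named otherwise. The sequences that carry the results are shown first, from the RefSeq build GRCm38.p6, on the strand of the gene. The first is a window of 201 bases, that is 100 on either side of a summit, in the intron of *Cdkn1a*, chr17:29095434-29095634, plus strand, at the one site of the 7 genes where quiescent and activated NSPCs differed by the test. Capitals mark its match to the AP-1 motif TGACTCA or TGAGTCA, which 5.24% of 74759 windows of this length around summits held. The second, chr17:29090862-29090978, plus strand, ends at the 5′ start of *Cdkn1a*, where a weak peak was called in 2 libraries, and the third, chr17:29078983-29079183, shown on the same strand, lies at the most accessible distal site of *Cdkn1a*. Capitals mark matches to the p53 response element, searched as a pair of half-sites up to 13 bp apart with at most 2 mismatches outside their cores, which 1.9% of windows held.
*Cdkn1a* intron: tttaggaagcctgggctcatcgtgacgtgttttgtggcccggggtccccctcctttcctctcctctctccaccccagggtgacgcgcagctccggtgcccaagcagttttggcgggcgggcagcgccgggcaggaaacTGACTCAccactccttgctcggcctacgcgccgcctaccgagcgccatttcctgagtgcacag
*Cdkn1a* 5′ start: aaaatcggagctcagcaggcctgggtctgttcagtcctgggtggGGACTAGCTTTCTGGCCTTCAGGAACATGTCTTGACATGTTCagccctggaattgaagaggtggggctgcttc
*Cdkn1a* distal: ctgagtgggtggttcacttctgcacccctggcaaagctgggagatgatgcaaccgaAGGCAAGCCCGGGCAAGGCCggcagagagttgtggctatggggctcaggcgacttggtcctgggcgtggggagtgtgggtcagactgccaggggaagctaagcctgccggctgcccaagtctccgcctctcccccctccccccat

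The last pair are the bases before the starts of the 2 transcripts of *Cdkn2a*, both on the minus strand, since one start carried H3K4me3 and the other did not. The stretch before the start of the p16 transcript, chr4:89282193-89282442, held 7 CpG dinucleotides in 250 bases, and that before the start of the p19Arf transcript, chr4:89294654-89294869, held 35 in 216 bases. Capitals mark each CpG. In the promoter windows of 300 bases that RefSeq gives for both, the counts were 12 and 45, more than in 60.4% and 98.1% of all 32817 such windows.
*Cdkn2a*, p16 start: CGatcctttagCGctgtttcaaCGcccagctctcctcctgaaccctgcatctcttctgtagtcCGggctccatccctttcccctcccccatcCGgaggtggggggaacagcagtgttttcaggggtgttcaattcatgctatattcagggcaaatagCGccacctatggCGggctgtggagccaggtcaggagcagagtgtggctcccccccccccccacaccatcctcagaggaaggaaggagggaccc
*Cdkn2a*, p19Arf start: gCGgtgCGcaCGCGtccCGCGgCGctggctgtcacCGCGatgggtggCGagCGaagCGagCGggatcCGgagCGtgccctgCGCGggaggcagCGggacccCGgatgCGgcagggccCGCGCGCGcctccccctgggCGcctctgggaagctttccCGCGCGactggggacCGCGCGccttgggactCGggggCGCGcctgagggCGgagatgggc

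All 7 genes had an ATAC-seq peak within 1 kb of a start in all 6 libraries, as did 52.2% of protein-coding genes. Among the 39 sites, 30 had a peak in at least 2 libraries, and 13 of these had one in all 6 (43.3%, against 30.9% of all such sites). Of the 9 sites found in a single library, 8 were found in a reactivated library and 1 in a quiescent library, where 70.7% and 22.9% of all 33608 single-library sites were. No site was open in both quiescent libraries and neither activated library, a class that held 9.08% of all such sites. At 2 sites, 1 at *Cdkn1a* and 1 at *Cdkn1c*, both activated libraries and neither quiescent library had a peak (6.67%, against 6.14% of all sites). At 5 sites, a peak was found in both reactivated libraries and in no other (16.7%, against 21.4%). The lists of the reactivated state are the longest. In classes that overlap with these, 8 sites had peaks in both reactivated and neither quiescent library (26.7%, against 34.0%) and 6 in both reactivated and neither activated library (20.0%, against 31.6%). The former numbered 3 without reactivated replicate 1 (12.5%, against 18.1% of all sites) or replicate 2 (12.0%, against 18.4%). Without quiescent replicate 2 the former numbered 12 (41.4%, against 44.0%). The latter numbered 11 without activated replicate 1 (36.7%, against 44.7%). Without reactivated replicates 1 and 2 the latter numbered 1 (4.17%, against 17.1%) and 2 (8.0%, against 15.7%). A counted site needs peaks in 2 libraries, so sites in reactivated libraries only drop out once a reactivated library is left out. The smaller counts of both classes in these runs thus follow from the rule and cannot show dependence on a replicate. No site had peaks in both quiescent and neither reactivated library (2.75% of all sites) or in both activated and neither reactivated library (0.377%). With every list limited to its strongest 47037 peaks, which left 22 sites in at least 2 libraries, the classes changed. Peaks in the reactivated libraries only were at 0 sites (3.08% of all such sites), in activated but not quiescent libraries at 0 (10.3%), in quiescent but not activated at 1 (12.0%), in reactivated but not quiescent at 1 (11.8%), in reactivated but not activated at 0 (6.55%), in quiescent but not reactivated at 3 (11.3%) and in activated but not reactivated at 1 (5.08%).

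**Figure D1:**
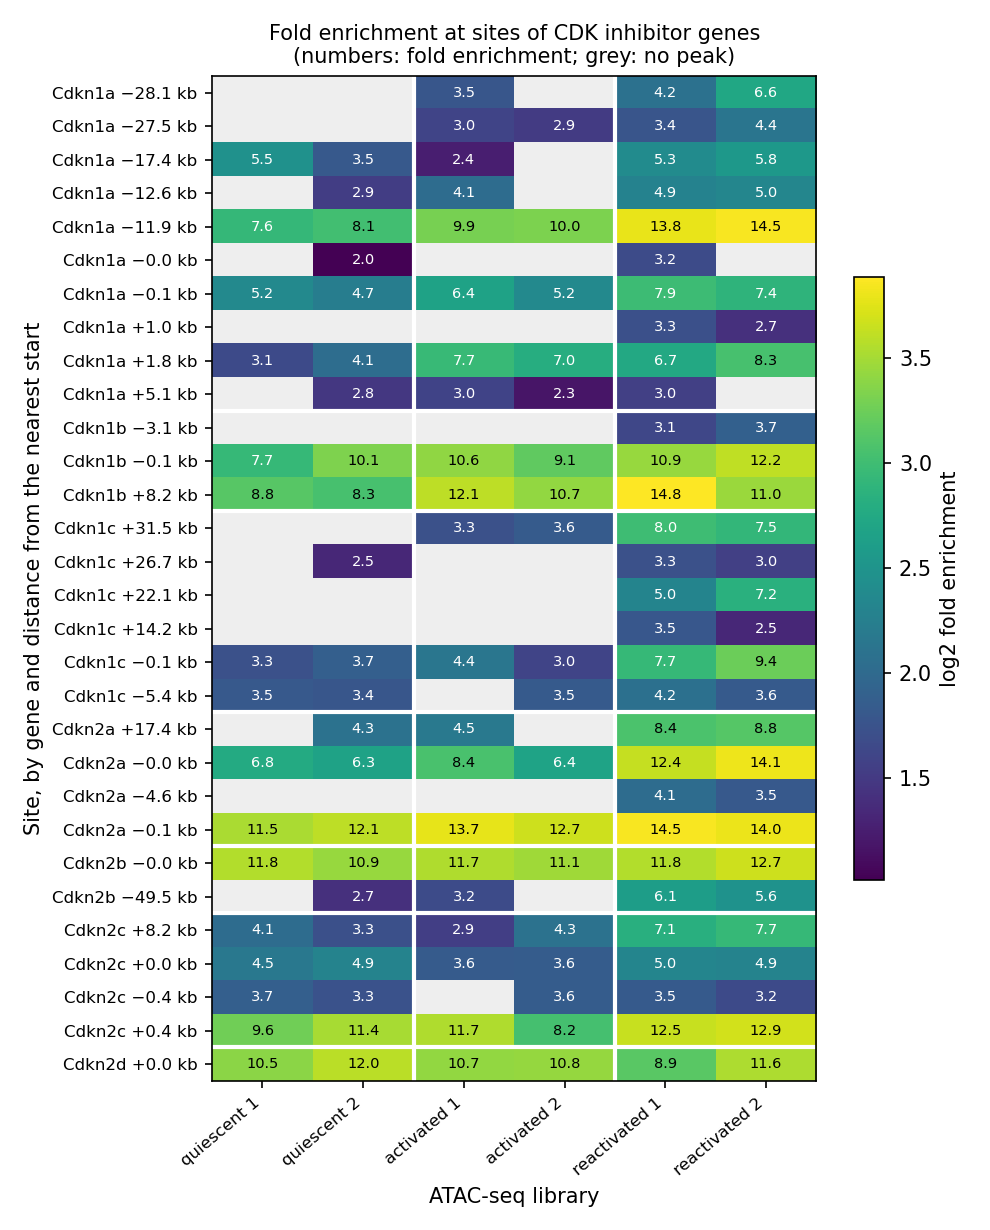
Fold enrichment of the ATAC-seq peak (numbers; colour on a log2 scale) at the 30 sites of CDK inhibitor genes with a peak in at least 2 libraries, with rows named by gene and distance in kb from the nearest start of that gene, and columns the 6 libraries. Grey cells have no peak; most of them lie in the quiescent and activated columns, and values above 10 occur at promoter sites of *Cdkn1b*, *Cdkn2a*, *Cdkn2b*, *Cdkn2c* and *Cdkn2d* and at 1 distal site each of *Cdkn1a* and *Cdkn1b*.

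Differences between states were tested with limma on log2 fold enrichment at the 23116 sites that had a peak in all 6 libraries, after the median of each library was subtracted. With 2 libraries against 2, an exact permutation test of a single site cannot give a two-sided p below 0.333, so the tests rest on the spread pooled over all sites. The library medians of log2 fold enrichment were 2.58 and 2.48 in the quiescent libraries, 2.89 and 2.61 in the activated and 3.38 and 3.43 in the reactivated libraries. The reactivated state thus lay 0.65 above the activated and 0.87 above the quiescent state, and the quiescent state 0.22 below the activated state, before centring. The log2 differences below are relative to these shifts.

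Between quiescent and activated NSPCs, accessibility at CDK inhibitor genes differed at 1 of the 13 sites tested. It was lower in quiescent NSPCs (6.35% of all 23116 sites were called lower), and no site was higher (7.05% of all sites were). The median log2 difference was 0.07 over the 13 sites and 0.07 over all sites, and 2 of the 13 sites (15.4%) had an unadjusted p under 0.05, as did 27.4% of all sites. None of the 9 promoter sites was called in either direction, where 4.33% of all promoter sites were called higher and 1.9% lower. Of the 4 distal sites, 1 was lower (10.6% of all distal sites) and none was higher (9.63%).

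The site that differed lies 1753 bp downstream of a start of *Cdkn1a*, in its intron (chr17:29095246-29095758), and its central sequence is the first one shown. It had a fold enrichment of 3.15 and 4.13 in replicates 1 and 2 of the quiescent, 7.74 and 7.0 of the activated and 6.73 and 8.32 of the reactivated state. Both quiescent libraries lay below all 4 others. After centring, the quiescent level was lower than the activated level by 0.81 on the log2 scale (log2 difference -0.81 ± 0.23 SE, n = 2 libraries per state, limma, adjusted p = 0.022). The reactivated level, centred, was closer to the quiescent level, with a log2 difference from activated of -0.63 (limma, adjusted p = 0.055), which was 0.02 without centring. This difference was called with the replicate number as a block (-0.63, limma, adjusted p = 0.047) and without quiescent replicate 1 (-0.65, 0.036) or quiescent replicate 2 (-0.64, 0.046). The call between quiescent and activated NSPCs was lost when either activated library or quiescent replicate 1 was left out, with log2 differences from -0.88 to -0.53. It was also lost when sites with a missing value were added, where the log2 difference was -1.42 ± 0.57 SE (limma, adjusted p = 0.12), and the site was not in the fit at a stricter peak threshold.

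**Figure D2:**
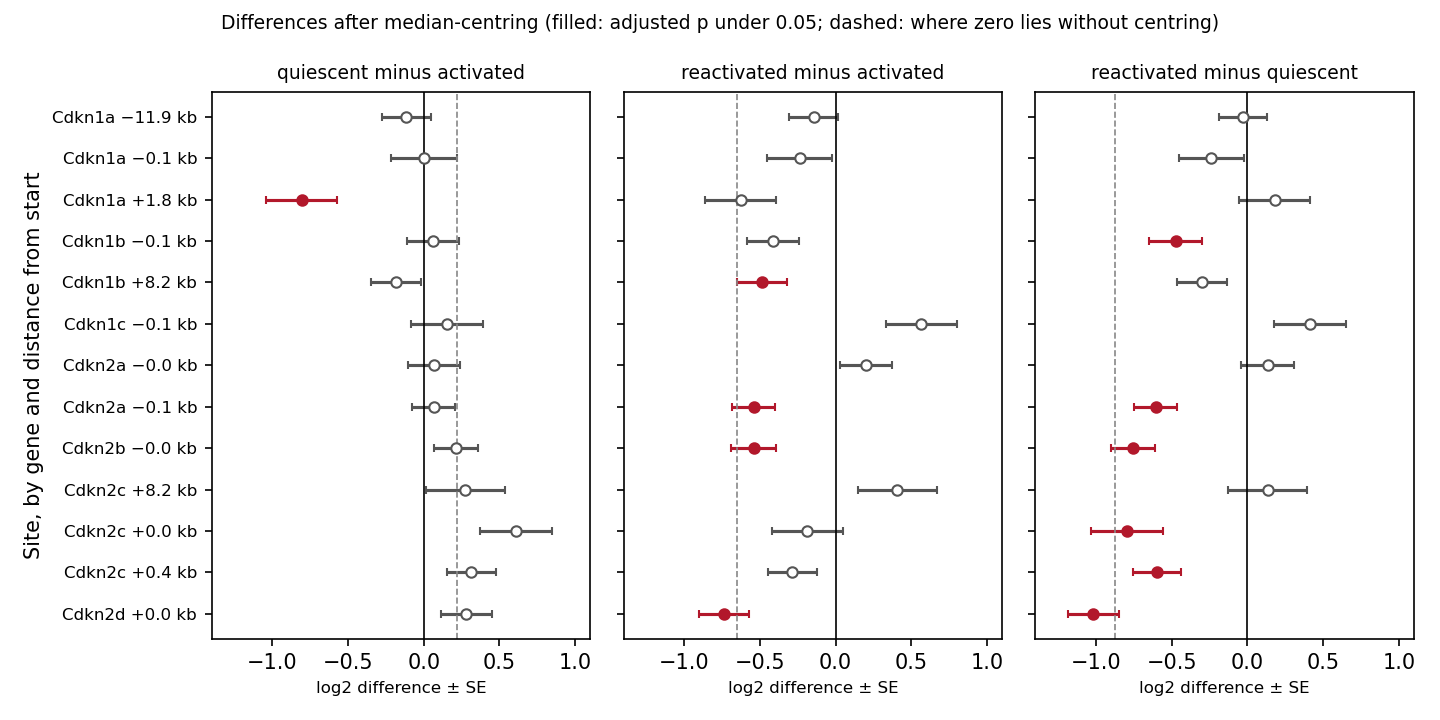
Log2 differences between states ± SE (x axis) from limma at the 13 sites of CDK inhibitor genes with a peak in all 6 libraries (y axis), for each pair of states, with filled red points for an adjusted p under 0.05. The dashed line marks where 0 would lie without median-centring; 1 site was lower in quiescent than activated NSPCs, and 4 and 6 sites were lower in reactivated than in activated and quiescent NSPCs, and among these 10 only the *Cdkn2d* points lie to the left of the dashed line.

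*Cdkn1a* (chr17:29090976-29100727, plus strand, mm10) encodes p21, whose transcription p53 is known to raise, and its main promoter was open in all libraries. Its site (chr17:29093551-29093932), 62 bp upstream of the start, had a fold enrichment of 5.17 and 4.68 in the quiescent libraries, 6.37 and 5.15 in the activated and 7.92 and 7.36 in the reactivated libraries. Quiescent and activated values overlapped, both reactivated values were above them, and no contrast was called. At the 5′ start of the gene, shown above with its p53 response element matches, a peak was called only in quiescent replicate 2 (2.02) and reactivated replicate 1 (3.19). H3K4me3 covered both of these starts in a single peak in both states.

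The strongest distal site of *Cdkn1a* lies 11896 bp upstream of the 5′ start (chr17:29078832-29079409) and overlaps the start of *Trp53cor1*, a long noncoding RNA gene known as a target of p53. It had a fold enrichment of 7.62 and 8.1 in the quiescent libraries, 9.86 and 9.98 in the activated and 13.8 and 14.5 in the reactivated libraries. The 3 states did not overlap in these values, whereas after centring they did, and no contrast was called, but without centring the site was called higher in reactivated than in activated and quiescent NSPCs. The third sequence above holds its match to the p53 response element.

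Farther upstream, 27489 bp from the 5′ start and in the intron of *Trp53cor1* (chr17:29063240-29063587), activated NSPCs had peaks of 3.05 and 2.85 and reactivated NSPCs of 3.42 and 4.38, whereas neither quiescent library had one. All 4 peaks were below the median fold enrichment of their lists. A site 973 bp downstream of a start was found in reactivated NSPCs only, at 3.28 and 2.66, next to the intronic site.

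**Figure D3:**
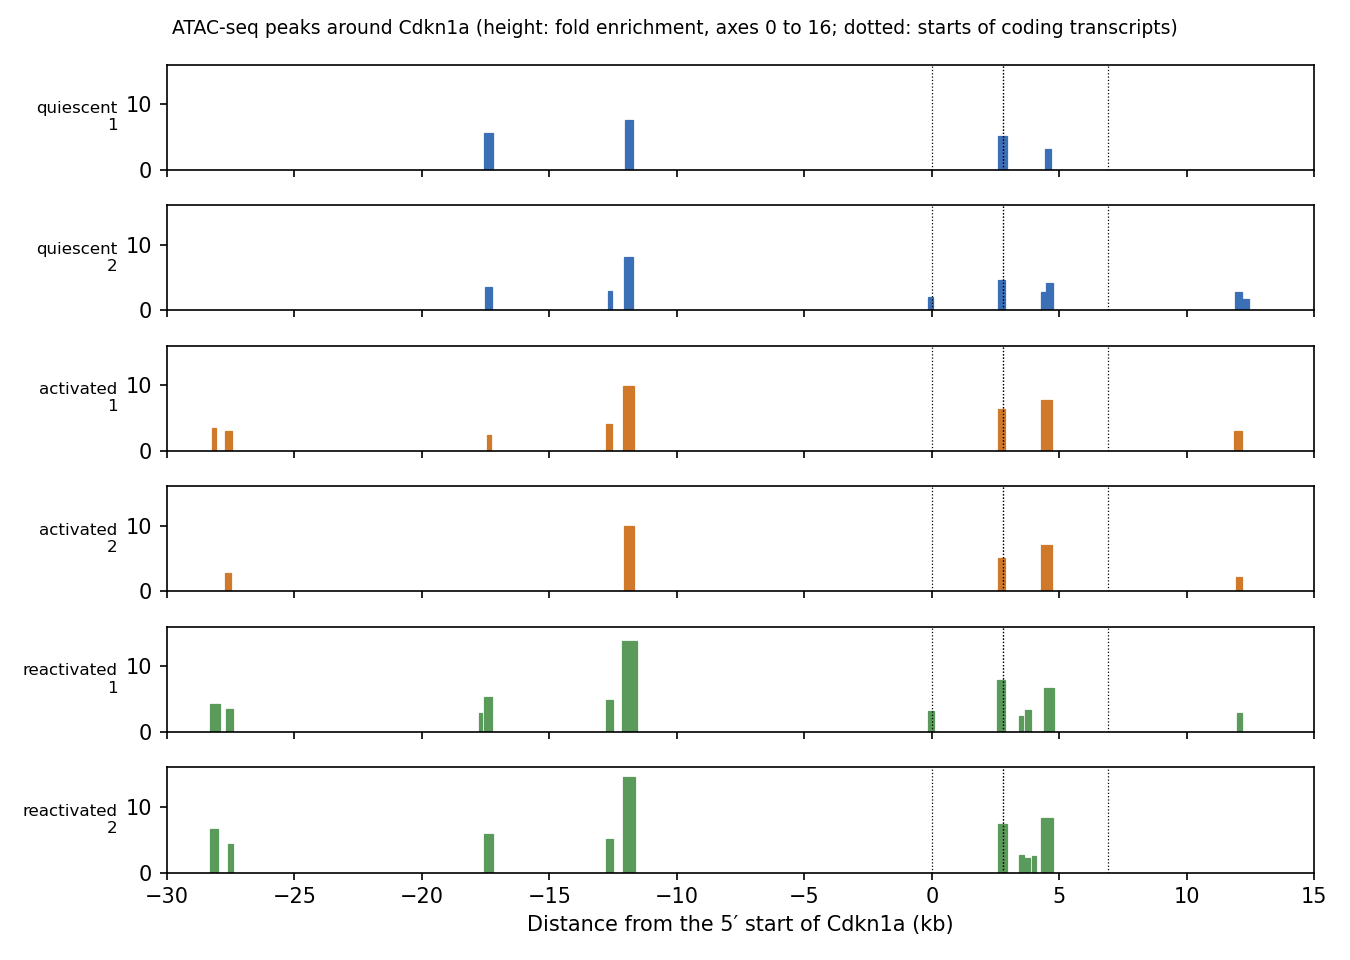
ATAC-seq peaks assigned to *Cdkn1a* in each of the 6 libraries, drawn to scale by distance in kb from the 5′ start (x axis) with height the fold enrichment (y axis, 0 to 16). Dotted lines mark starts of protein-coding transcripts; the peak just below 5 kb is the intronic site, whose height was 3.15 and 4.13 in the quiescent libraries against 7.74 and 7.0 in the activated ones.

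*Cdkn1b* (chr6:134920401-134925513, plus strand), whose product p27 binds cyclin E and CDK2 complexes, had its promoter site 67 bp upstream of the start (chr6:134919925-134920794). Fold enrichment there was 7.65 and 10.1 in the quiescent libraries, 10.6 and 9.07 in the activated and 10.9 and 12.2 in the reactivated libraries. Quiescent and activated values overlapped. The centred log2 difference between reactivated and activated NSPCs was -0.41 ± 0.17 (SE, n = 2 per state), which was not called (limma, adjusted p = 0.086), except without quiescent replicate 1 (-0.44, 0.041), and was 0.24 without centring. A site 8165 bp downstream (chr6:134928259-134928947), beside the start of the noncoding RNA gene *Lockd*, had 8.84 and 8.32 in the quiescent libraries, 12.1 and 10.7 in the activated and 14.8 and 11.0 in the reactivated libraries. The quiescent values were below those of the other states, but after centring the difference between quiescent and activated NSPCs was not called (limma, adjusted p = 0.51). Centred values at the *Lockd* site were called lower in reactivated than activated NSPCs (-0.49, limma, adjusted p = 0.039). Those at the *Cdkn1b* promoter were called lower in reactivated than quiescent NSPCs (-0.48, limma, adjusted p = 0.034). Without centring these differences were 0.17 and 0.40. Both calls were lost under some alternatives, given below. *Cdkn1b* also had a site that only the reactivated libraries showed, 3087 bp upstream (chr6:134917218-134917406), at 3.09 and 3.72, and H3K4me3 peaks of 18.3 and 14.4 covered it in quiescent and activated NSPCs.

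*Cdkn1c* (chr7:143458339-143461050, minus strand) encodes p57 and is an imprinted gene, expressed from the maternal copy. By the strongest promoter site of each gene, it had the lowest mean fold enrichment of the 7 in quiescent (3.49) and activated (3.72) NSPCs. The site 117 bp upstream of its start (chr7:143460881-143461362) had 3.3 and 3.69 in the quiescent libraries, 4.41 and 3.03 in the activated and 7.68 and 9.45 in the reactivated libraries. Both reactivated libraries were above all 4 others, and the centred log2 difference from activated NSPCs was 0.57 ± 0.24 (SE, n = 2 per state), which was not called (limma, adjusted p = 0.087). It was called with lists of equal length (0.59, limma, adjusted p = 0.045), whereas the adjusted p under the alternatives other than this and no centring was from 0.059 to 0.88. It was the highest centred difference of the 13 sites in that contrast, and without centring it was 1.22 and called (limma, adjusted p = 0.00094).

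The region 3′ of *Cdkn1c* held 6 sites, of which none had a peak in all libraries. A site 31512 bp downstream of the start (chr7:143428476-143428933), in intergenic DNA, had 3.3 and 3.57 in activated and 7.95 and 7.54 in reactivated NSPCs and no peak in quiescent NSPCs. Sites 22094 bp (4.96 and 7.16) and 14210 bp (3.47 and 2.53) downstream had peaks in both reactivated libraries only. At the former, H3K4me3 was called in quiescent NSPCs, at 4.88, and not in activated NSPCs. Upstream of the gene, a peak at 5436 bp was found in 5 of 6 libraries, at 3.53 and 3.44 in quiescent, 3.54 in activated replicate 2, and 4.22 and 3.56 in reactivated NSPCs.

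*Cdkn2a* (chr4:89274471-89294653, minus strand) has a start for the p16 transcript and, upstream of it, a start for p19Arf, a protein in another reading frame that binds the p53 inhibitor MDM2. Both starts were open in all 6 libraries. The p19Arf start (chr4:89294384-89295831) had 11.5 and 12.1 in the quiescent libraries, 13.7 and 12.7 in the activated and 14.5 and 14.0 in the reactivated libraries. The p16 start (chr4:89281984-89282593) had 6.84 and 6.34 in the quiescent libraries, 8.36 and 6.42 in the activated and 12.4 and 14.1 in the reactivated libraries. At both starts the reactivated values were above the other 4, and quiescent and activated values overlapped at the p16 start. No contrast was called at the p16 start after centring, but without it the p16 start was called higher in reactivated than in activated and quiescent NSPCs. After centring, the p19Arf start was called lower in reactivated than in activated (-0.54, limma, adjusted p = 0.0099) and quiescent NSPCs (-0.61, limma, adjusted p = 0.002). Without centring these differences were 0.11 and 0.27. Both calls were lost under some alternatives, given below.

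The 2 starts of *Cdkn2a* differed in H3K4me3. At the p19Arf start the fold enrichment over input was 42.3 in quiescent and 45.4 in activated NSPCs, in peaks of 3580 and 3698 bp. Within 1 kb of the p16 start, H3K4me3 was called in neither state. Of 26076 starts of protein-coding transcripts with an ATAC-seq peak in all 6 libraries, 1.78% had no H3K4me3 peak in either state. Between the starts, 4574 bp upstream of the p16 start (chr4:89286669-89287064), an ATAC-seq peak was called in the reactivated libraries only, at 4.09 and 3.51, under H3K4me3 of 14.6 in quiescent and 14.8 in activated NSPCs.

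*Cdkn2b* (chr4:89306299-89311039, minus strand), which encodes p15 and lies beside *Cdkn2a*, had a promoter site (chr4:89310489-89311288) of nearly the same fold enrichment in every library. The values were 11.8 and 10.9 in the quiescent libraries, 11.7 and 11.1 in the activated and 11.8 and 12.7 in the reactivated libraries. Its strongest distal site, 49464 bp upstream (chr4:89360344-89360670), had 2.67 in quiescent replicate 2, 3.18 in activated replicate 1, and 6.14 and 5.59 in reactivated NSPCs. A site at 17380 bp downstream of the p16 start of *Cdkn2a* (chr4:89264644-89264975) had the same pattern, with 4.28 in quiescent replicate 2, 4.51 in activated replicate 1, and 8.41 and 8.78 in reactivated NSPCs.

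*Cdkn2c* (chr4:109660876-109667189, minus strand), which encodes p18, had a site for each of its 2 starts in all 6 libraries. The site at the upstream start (chr4:109666037-109667247) had 9.64 and 11.4 in the quiescent libraries, 11.7 and 8.25 in the activated and 12.5 and 12.9 in the reactivated libraries. That at the downstream start (chr4:109665207-109665502) had 4.48 and 4.93 in the quiescent libraries, 3.58 and 3.62 in the activated and 5.01 and 4.93 in the reactivated libraries. Both quiescent values lay above both activated values at the downstream start, and the centred log2 difference was 0.61 ± 0.24 (SE, n = 2 per state), which was not called (limma, adjusted p = 0.091). It was the highest of the 13 differences between quiescent and activated NSPCs. Its strongest distal site, 8209 bp downstream and at a start of the noncoding RNA gene 9630013D21Rik (chr4:109656976-109658097), had 4.08 and 3.29 in the quiescent libraries, 2.92 and 4.28 in the activated and 7.07 and 7.68 in the reactivated libraries.

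*Cdkn2d* (chr9:21288410-21291407, minus strand), which encodes the INK4 protein p19, had a single site, at its promoter (chr9:21290923-21291775). It had a fold enrichment of 10.5 and 12.0 in the quiescent libraries, 10.7 and 10.8 in the activated and 8.91 and 11.6 in the reactivated libraries. The 3 states overlapped in these values. It was the one promoter site of the 9 whose mean was lower in reactivated (10.2 ± 1.89 SD, n = 2) than in activated (10.8 ± 0.0484) and quiescent (11.2 ± 1.05) NSPCs before centring.

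**Figure D4:**
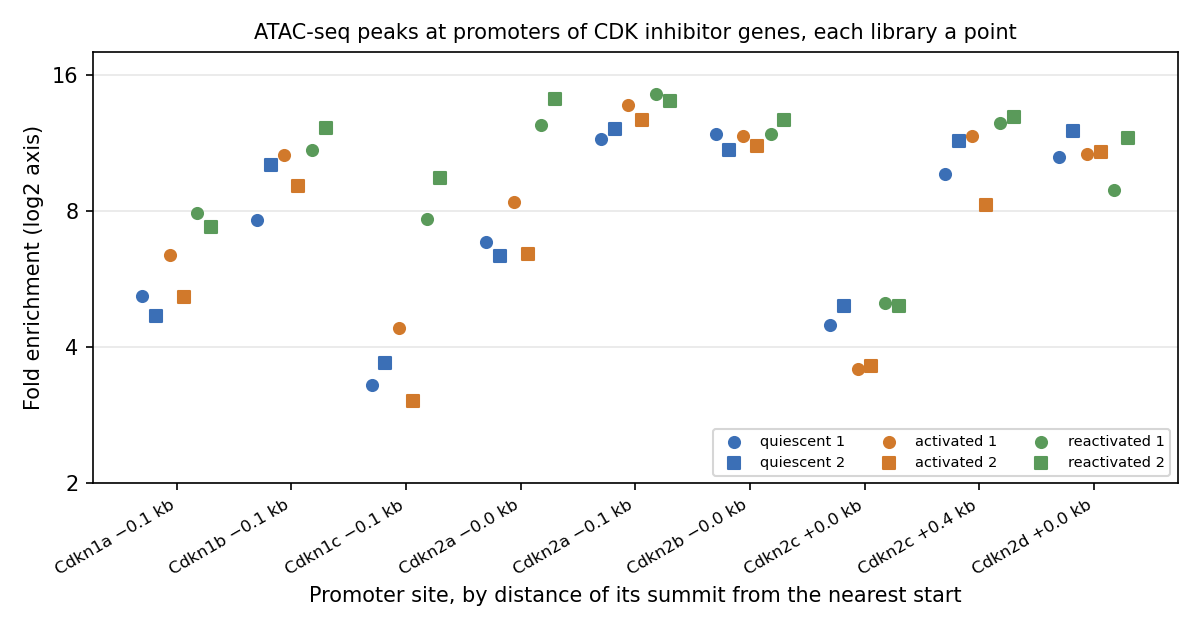
Fold enrichment (y axis, log2 scale) of the ATAC-seq peak in each library (points; colour by state, shape by replicate) at the 9 promoter sites of CDK inhibitor genes with a peak in all 6 libraries (x axis, named by distance in kb from the nearest start). Before centring, the 2 reactivated libraries are above the other 4 at every site except *Cdkn2d*, where the 3 states overlap. The margin is narrow at *Cdkn2b* and at the downstream start of *Cdkn2c*. Reactivated values are 7.68 and 9.45 at *Cdkn1c* and 12.4 and 14.1 at the p16 start of *Cdkn2a*.

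Against activated NSPCs, reactivated NSPCs had lower centred accessibility at 4 of the 13 sites (14.5% of all sites were called lower) and higher at none (7.66% were called higher). Of the 9 promoter sites, 3 were lower (18.6% of all promoter sites) and none was higher (4.51%), and of the 4 distal sites 1 was lower (10.7% of all distal sites). The median log2 difference was -0.28 over the 13 sites, -0.11 over all sites and -0.18 over all promoter sites. The 4 sites, by limma, were the promoter of *Cdkn2d* (log2 difference -0.74 ± 0.17 SE, adjusted p = 0.0046), the p19Arf start of *Cdkn2a* (-0.54 ± 0.14, 0.0099), the promoter of *Cdkn2b* (-0.54 ± 0.15, 0.012) and the *Lockd* site of *Cdkn1b* (-0.49 ± 0.17, 0.039). Without centring 4 other sites were called higher, those of *Cdkn1a* 11896 bp upstream, the *Cdkn1c* promoter, the p16 start and *Cdkn2c* 8209 bp downstream. Of all 23116 sites, 12166 were called higher and 109 lower without centring. None of the 4 lower calls was then made, the difference at *Cdkn2d* was -0.08, and the other 3 were above 0, that is, below the shift of the median site. The calls at *Cdkn2a* and *Cdkn2b* were each lost without activated replicate 2, reactivated replicate 1 or reactivated replicate 2 (log2 differences from -0.60 to -0.49), that at the *Lockd* site without activated replicate 1, activated replicate 2 or reactivated replicate 2 (-0.54, -0.49 and -0.25), and also with quantile normalization (-0.40), at a −log10 q of 10 or more (-0.37) and without a trend in eBayes (-0.49), and that at *Cdkn2d* without reactivated replicate 1 (-0.58). Without a trend in eBayes the call at *Cdkn2a* was also lost (-0.54), and with missing values added all 4 calls were, with log2 differences from -1.54 to -1.29.

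Against quiescent NSPCs, centred accessibility in reactivated NSPCs was lower at 6 of the 13 sites (25.7% of all sites were called lower) and higher at none (11.5% were called higher). All 6 were promoter sites, of the 9 tested (32.0% of all promoter sites were called lower and 5.67% higher), and none of the 4 distal sites was called (19.7% of all distal sites were lower and 17.0% higher). The largest difference was at *Cdkn2d* (log2 difference -1.02 ± 0.17 SE, limma, adjusted p = 0.00011), followed by the downstream start of *Cdkn2c* (-0.79 ± 0.24, 0.011) and the promoter of *Cdkn2b* (-0.76 ± 0.15, 0.00046). The p19Arf start of *Cdkn2a* (-0.61 ± 0.14, 0.002), the upstream start of *Cdkn2c* (-0.60 ± 0.16, 0.0055) and the promoter of *Cdkn1b* (-0.48 ± 0.17, 0.034) also differed. Without centring no site was called lower, 7 of the 13 were called higher (the 3 tested sites of *Cdkn1a*, the *Lockd* site, the *Cdkn1c* promoter, the p16 start and *Cdkn2c* 8209 bp downstream), and of the 6 differences only that at *Cdkn2d* kept its sign. In that fit, 15756 of all 23116 sites were called higher and 126 lower. Without quiescent replicate 2 only 3 of the 6 calls were made, those at *Cdkn1b* (-0.24) and both starts of *Cdkn2c* (-0.69 and -0.44) being lost, and the calls at *Cdkn1b* and the downstream start of *Cdkn2c* were also lost without either reactivated library (-0.42 and -0.53, and -0.83 and -0.76). Quantile normalization ended the calls at *Cdkn1b* (-0.35), the p19Arf start (-0.33) and the upstream start of *Cdkn2c* (-0.40), and that at *Cdkn1b* was also lost at a −log10 q of 10 or more (-0.31) and without a trend in eBayes (-0.48). With missing values added none of the 6 was called, with log2 differences from -1.21 to -0.67. Both contrasts with reactivated NSPCs share its 2 libraries, so their differences are not independent of each other.

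H3K4me3 was present at a promoter of all 7 genes in both states, as at 59.3% of protein-coding genes (60.6% in quiescent and 59.5% in activated NSPCs). With 1 library per state there was no test. The fold of quiescent over activated fold enrichment ranged from 0.932 at the p19Arf start of *Cdkn2a* to 1.43 at *Cdkn2b*, where the values were 24.0 and 16.8. It was 1.29 at *Cdkn1c* (8.58 and 6.67), 1.25 at *Cdkn1b* (31.1 and 24.9), 1.03 at *Cdkn1a* (34.2 and 33.1), 1.0 at *Cdkn2c* (44.0 and 43.9) and 0.979 at *Cdkn2d* (30.9 and 31.6). None passed 1.5-fold, which 6.51% of 15602 overlapping peaks passed with the higher value in quiescent and 1.47% in activated NSPCs. The median fold of all such peaks was 1.08. *Cdkn1c* had the weakest mark, and by the strongest promoter site of each gene also the lowest accessibility in these states.

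The widths of these peaks ranged from 528 bp at *Cdkn1c* in activated NSPCs to 10939 bp at *Cdkn1b* in quiescent NSPCs. At *Cdkn1b*, a single H3K4me3 peak of 10939 bp in quiescent and 10913 bp in activated NSPCs covered the gene and the start of *Lockd*, and both were wider than 99.9% of the peaks in their lists. At *Cdkn2d* the peak measured 5512 bp in quiescent and 2472 bp in activated NSPCs, but the quiescent peak also covered the start of the neighbouring gene *Kri1*, to which its middle was nearer, so the width is not that of *Cdkn2d* alone. At *Cdkn2c* it measured 7882 and 5672 bp. At *Cdkn1a* it was 6352 and 6725 bp, covering the intronic site that was lower in quiescent NSPCs. Among the 30 sites in at least 2 libraries, 18 were overlapped by H3K4me3 in both states, against 25.9% of all such sites, and 7 of these 18 were distal.

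**Figure D5:**
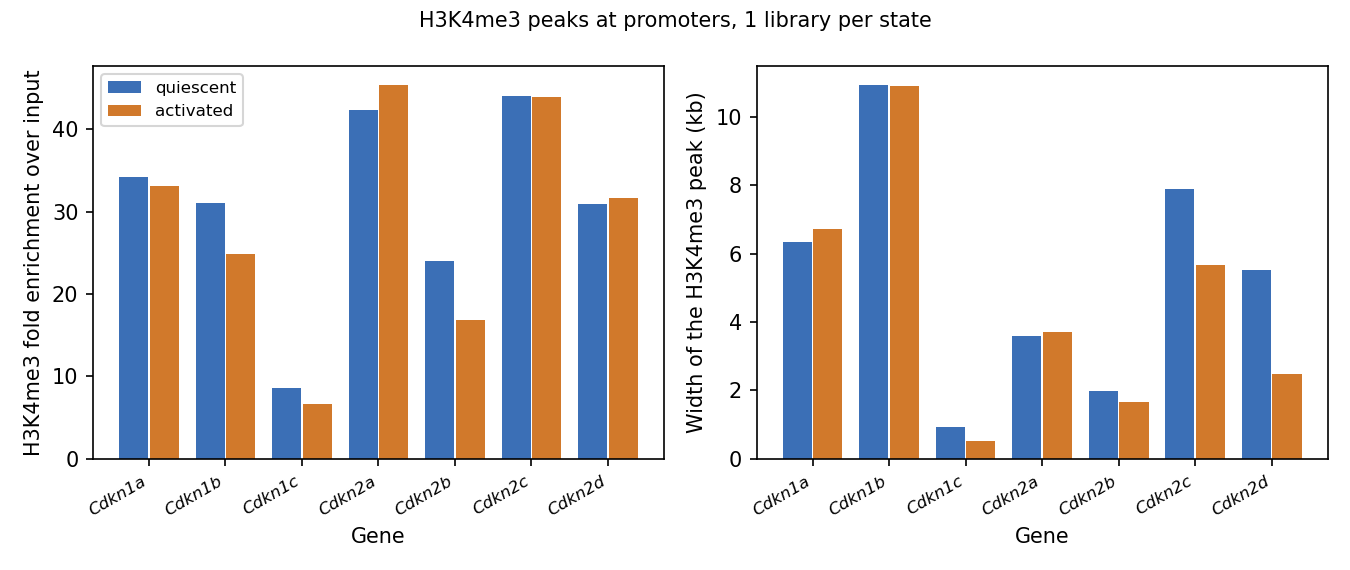
H3K4me3 fold enrichment over input (left y axis) and width of the peak in kb (right y axis) at the promoter of each CDK inhibitor gene (x axis), with a bar for the quiescent and a bar for the activated library and no error bars, since each state has 1 library. The *Cdkn2a* bars are those of the p19Arf start; the peak at *Cdkn2d* was 5512 bp wide in quiescent NSPCs, where it also covered the start of *Kri1*, and 2472 bp in activated NSPCs.

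Sequences in windows of 201 bases around the summits of the 30 sites were searched on both strands. SP/KLF motifs (GGGCGG) were in 14 windows, where 19.3% of all 74759 windows held one. The E-box CAGCTG was in 8 windows (22.7% of all), the NFI core TTGGC in 13 (46.9%) and GGCGCC in 4 (7.65%, and 11.9% of promoter windows). The p53 response element was in 2 windows (1.9%), both at *Cdkn1a* and shown above, and the AP-1 motif in 1 (5.24%). The forkhead motif GTAAACA was in 1 window (2.38%), the E2F motifs TTCGCGC and TTGGCGC in none (2.09%) and the NFI palindrome, TTGGC and GCCAA with 5 bases between, in none (0.102%). The NFI palindrome contains the NFI core, and matches are letters in a window, not bound sites.

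All 12 genes of a list of partners and targets of the inhibitors (*Cdk2*, *Cdk4*, *Cdk6*, *Ccnd1*, *Ccnd2*, *Ccnd3*, *Ccne1*, *Ccne2*, *Ccna2*, *Rb1*, *Rbl1* and *Rbl2*) had a promoter peak in all 8 lists, where 52.2% of protein-coding genes had one in all 6 ATAC-seq libraries and 59.3% H3K4me3 in both states. Between quiescent and activated NSPCs, *Ccne1*, which encodes cyclin E1, was higher in quiescent NSPCs, at 12.9 and 11.2 against 9.54 and 10.7 in activated NSPCs (log2 difference 0.47, limma, adjusted p = 0.046; 0.25 without centring) and *Rb1*, the retinoblastoma gene, was lower, at 4.08 and 5.99 against 10.5 and 8.51 (-0.71, limma, adjusted p = 0.017; -0.94 without centring). The other 10 were not called, where 4.33% of all promoter sites were called higher and 1.9% lower. Against activated NSPCs, 5 were lower in reactivated NSPCs by the centred values (*Ccna2*, *Ccnd1*, *Ccnd2*, *Cdk4* and *Cdk6*) and none was higher, where 18.6% of all promoter sites were called lower, but without centring the differences at *Ccna2* and *Cdk6* were above 0. *Cdk4*, a kinase that INK4 proteins bind, had a log2 difference of -1.03 (limma, adjusted p = 0.00017), which was -0.38 without centring. Against quiescent NSPCs, 6 were lower (the same 5 and *Ccne1*) and *Rb1* was higher (0.54, limma, adjusted p = 0.035; 1.41 without centring), where 32.0% of all promoter sites were called lower and 5.67% higher, whereas of the 6, without centring, only *Ccnd2* and *Cdk4* remained below 0.

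Regulators of the inhibitors (*Trp53*, *Mdm2*, *Skp2*, *Cks1b*, *Bmi1*, *Ezh2*, *Foxo1*, *Foxo3*, *Zbtb17*, *Smad1*, *Smad4* and *Smad5*) also had promoter peaks in all 8 lists at all 12 genes, against the same shares of 52.2% and 59.3% of protein-coding genes. By limma no gene was called between quiescent and activated NSPCs, where 4.33% of all promoter sites were called higher and 1.9% lower, and 2 of the 15 promoter sites of the list had an unadjusted p under 0.05 (19.2% of all promoter sites). In reactivated NSPCs, 7 genes had at least 1 promoter site lower than in activated and 8 at least 1 lower than in quiescent NSPCs by the centred values (counted by site, 18.6% and 32.0% of all promoter sites were called lower), and none was higher. Another promoter site was not called at *Mdm2* (-0.26) and *Foxo3* (-0.47) against activated NSPCs. Against quiescent NSPCs the same held at *Mdm2* (-0.26) and *Trp53* (-0.11). Without centring, 3 of the 7 (*Bmi1*, *Mdm2* and *Smad5*) and, of the 8, only *Foxo3* at 1 of its sites were below 0 after rounding to 2 decimals. *Ezh2*, of the Polycomb complex known to silence *Cdkn2a*, differed in reactivated from activated NSPCs by -0.59 (limma, adjusted p = 0.0048; 0.06 without centring), and *Skp2*, of the ligase that marks p27 for destruction, by -0.37 (limma, adjusted p = 0.039; 0.29 without centring).

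Among 11397 other genes with a promoter peak in all 6 libraries, those whose centred log2 promoter values were closest to each CDK inhibitor gene over the 6 libraries were found by Euclidean distance. For *Cdkn2a* these were *Zfp263* (0.0781), *Kdm4a* (0.115) and *Pcdhgc3* (0.116), with a median over all genes of 1.42. For *Cdkn1c* they were *Etl4* (0.199), *Ppp1r16b* (0.254) and *Ccdc149* (0.323), with a median of 2.55. For *Cdkn1b* the closest was *Mapkapk2* (0.129), for *Cdkn2b* 1810013L24Rik (0.1), for *Cdkn2c* *Esyt1* (0.114) and for *Cdkn2d* *Ing2* (0.135). For *Cdkn1a*, *Islr* and *Islr2* were equally close (0.195).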

How the data were processed

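By the submitters' processing notes and the study's methods, the authors trimmed reads with Trim Galore 0.4.0, aligned them to mm10 with Bowtie2 2.2.5, marked duplicates with Picard 1.88, removed them with SAMtools 1.3.1 and called peaks per library with MACS 2.1.1 (FDR 0.05; broad H3K4me3 peaks against input, broad cutoff 0.01, reads extended to 150 bp). The deposited fold enrichment is a ratio of pileup to background, not scaled between libraries. The deposited −log10 p and q and the score were computed by the authors within a library and grow with depth. No read counts were analysed here, so the count test of a usual design was replaced by limma 3.58.1 (R 4.3.3) on log2 of the highest fold enrichment per site, centred, with a trend in eBayes, 3 residual and 20.4 prior degrees of freedom, and Benjamini-Hochberg adjustment. Peaks outside the 19 autosomes, X and Y were left out (0.113% to 0.864% of a list). Genes and starts came from GENCODE M21 and sequences from RefSeq GRCm38.p6, the same assembly as mm10. Pileups were recovered from fold enrichment and p, up to a −log10 p of 40, with a tolerance of 0.02% of −log10 p. Named sites were mainly promoter sites, those called or specific to a state, and the strongest distal site of each gene. Not all such sites were named, and the site 5436 bp upstream of *Cdkn1c* was named outside this rule. Fitted values are given at an adjusted p below 0.1 and for 1 other site. Members, lists, motifs and alternatives were chosen with earlier results of these data known. In simulated data for quiescent against activated, 0 of 50 changes of 1.41-fold, 26.0% of 100 of 2-fold and 76.0% of 50 of 4-fold were called among 23116 sites. All other simulated sites were unchanged, and spreads were drawn at random across sites. In the data, 1629 sites were called higher and 1469 lower in quiescent NSPCs, so the adjustment was stricter in the simulation. These shares therefore do not give the share of real changes that the fit could call. Python 3.11.15, pandas 2.3.3, pysam 0.24.0 and matplotlib 3.10.9 were used. Replicate numbers were not used to pair samples in the main fit (see the closing section).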

Additional observations from a re-analysis of the deposited data

How the results depend on the processing

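Leaving out the centring reversed the log2 difference between reactivated and activated NSPCs at *Cdkn1a* +1753 bp (0.02), the *Cdkn1b* promoter (0.24), the *Lockd* site (0.17), the p19Arf start (0.11) and *Cdkn2b* (0.11), and that between reactivated and quiescent NSPCs at the *Cdkn1b* promoter (0.40), the p19Arf start (0.27), *Cdkn2b* (0.12) and the downstream (0.08) and upstream (0.27) starts of *Cdkn2c*. With missing values set to the lowest of the list, the differences at the downstream start of *Cdkn2c* (quiescent against activated, -0.01) and the *Cdkn1c* promoter (reactivated against activated, -0.24) reversed. Of 24 site values with an adjusted p of 0.1 or more, 22 changed sign under some alternative, 16 of them under one other than no centring. CDK inhibitor sites lower and higher in reactivated than activated NSPCs numbered 0 and 4 without centring, and in reactivated than quiescent NSPCs 0 and 7. The lower sites in reactivated than activated NSPCs were 2 with eBayes without a trend and 0 with missing values added, and in reactivated than quiescent NSPCs 3 with quantile normalization and 0 with missing values added. With lists of equal length 1 site, the *Cdkn1c* promoter, was higher in reactivated than activated NSPCs, and at −log10 q of 10 or more 0 sites were lower in quiescent than activated NSPCs. Over all sites, those higher and lower in quiescent than activated NSPCs were 1629 and 1469; the numbers were 442 and 2186 without centring, 1071 and 1393 with quantile normalization, 584 and 532 at −log10 q of 10 or more, and 603 and 4726 with missing values added. Against activated NSPCs, 1771 sites were higher and 3363 lower in reactivated NSPCs; the numbers were 12166 and 109 without centring, 1030 and 1709 at −log10 q of 10 or more, 4 and 320 with missing values added, and 2152 and 2062 with quantile normalization. Against quiescent NSPCs, 2649 were higher and 5940 lower; the numbers were 15756 and 126 without centring, 1555 and 3190 at −log10 q of 10 or more, 621 and 1097 with missing values added, and 3150 and 3251 with quantile normalization. Leaving out single libraries gave 780 to 1369 sites higher and 1073 to 1214 lower in quiescent than activated NSPCs, 322 to 1745 higher and 717 to 3891 lower in reactivated than activated NSPCs, and 1209 to 2923 higher and 3320 to 7125 lower in reactivated than quiescent NSPCs. At CDK inhibitor genes it gave 0 to 1 site higher and 0 to 1 lower in quiescent than activated NSPCs, and 1 to 6 and 3 to 8 lower in reactivated NSPCs than in activated and quiescent NSPCs. The higher site appeared without activated replicate 2, and the lower *Cdkn1a* site was lost without activated replicate 1, activated replicate 2 or quiescent replicate 1. Of the 39 sites, 24 were found with lists of equal length. Sites in reactivated libraries only were 8 at −log10 q of 10 or more (34.8%, against 28.4% of all such sites) and 0 with lists of equal length (3.08% of all). In the main setting they were 16.7%, against 21.4% of all such sites. They numbered 5 to 6 without a quiescent or activated library, where 23.3% to 27.4% of all such sites were in this class. Without a reactivated library this class could not be formed, since a site needs peaks in 2 libraries. Sites in activated but not quiescent libraries were 0 at −log10 q of 10 or more (6.11% of all such sites), with lists of equal length (10.3%) and within 25 kb (6.14%). With a library left out they were 2 to 3, where 8.06% to 12.9% of all such sites were in that class. Sites in reactivated but not quiescent libraries were 5 within 25 kb (19.2%, against 34.0% of all such sites). Sites in reactivated but not activated libraries were 10 at −log10 q of 10 or more (43.5%, against 37.5%), where the main setting had 20.0% against 31.6%. Sites in quiescent but not activated libraries were 1 at −log10 q of 10 or more (4.35%, against 6.42% of all such sites) and 1 with lists of equal length (4.55%, against 12.0%). With a library left out they were 0 to 2, where 10.3% to 13.7% of all such sites were in that class. Promoter peaks in all ATAC-seq libraries were found at 6 of the 7 genes at −log10 q of 10 or more and at 7 under the other alternatives run, and H3K4me3 in both states at 7 under the alternatives run. Deviations of replicate 1 from the mean of its state were little correlated between states after centring (Pearson r -0.00133, 0.0423 and -0.0173). Whether libraries of the same replicate number were prepared together cannot be told from these values. With the replicate block, 1735 sites were higher and 1496 lower in quiescent than activated NSPCs, 1817 and 3473 in reactivated than activated and 2693 and 6038 in reactivated than quiescent NSPCs, and the *Cdkn1a* intronic site was also called lower in reactivated than activated NSPCs. The cause of these changes was not tested. Weak peaks, the absence of read counts and 2 libraries per state limit these comparisons, and a site without a peak may be open below the pileup called.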
